A study of Bos taurus with 2 samples.

Results

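The expression of 10 genes for muscle ubiquitin ligases and atrophy genes was described in the longissimus thoracis (LT) muscle of fetal calves after low or high maternal nutrition. The genes were taken by name, and a probe belonged to a gene when its accession matched the symbol. Of the 10 genes, 9 had a probe and 1, *NEDD4*, had none. The 9 genes had 19 of the 43652 probes, and 18 of the 19 were well above background on both arrays. All fetuses were Japanese Black cattle at 8.5 months of gestation, sired by 1 bull with male-sorted semen. Dams of the low-nutrition (LN) group were fed 60% of their nutritional requirement during gestation and dams of the high-nutrition (HN) group 120%. Each group was measured once, on 1 array with the pooled RNA of 4 fetuses, those with the lowest bodyweight in the LN group and those with the highest bodyweight in the HN group. Diet and selection by bodyweight cannot be told apart, the spread between fetuses is not known, and no test or p-value was possible.

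Ubiquitin ligases attach ubiquitin to chosen proteins and so mark most of them for breakdown by the proteasome. F-box proteins pick the substrates of cullin-based ligases, RING ligases bring a ubiquitin-carrying enzyme to the substrate, and HECT ligases carry the ubiquitin themselves before passing it on. In adult muscle, atrogin-1 (*FBXO32*) and MuRF1 (*TRIM63*) are the best known of these genes, because their mRNA rises in fasting, disuse and denervation when FOXO factors are active. The arrays measured mRNA and not ligase protein or protein breakdown.

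The unit used is log2 LN/HN, the log2 intensity of a probe in the LN pool minus that in the HN pool after quantile normalization, so that a positive value is higher in the LN pool. Between replicate spots of 42 probes the SD of this value was 0.086. These probes had a median log2 signal of 8.30, and the error of dim probes was larger. Between probes of the same gene the SD was 0.096 for genes with a mean log2 signal of 10 or more and 0.28 for genes below 6. The Feature Extraction software put the error of the log2 LN/HN of a single ligase probe at 0.20 to 0.23. All these errors cover the array and not the animals. A log2 LN/HN above 0.32 or below -0.32 was counted as past the threshold, which is a size and not a test. Intensities below are the scanner values before normalization, given for HN and then for LN.

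None of the 9 ligase genes and none of their 18 probes was past the threshold. Of all 19554 genes with a value, 18.0% were, 8.85% higher and 9.11% lower in the LN pool, and of all probes with a value 18.6% were. With the upper quartile of each array subtracted as the scaling, the shares of all genes were 6.0% higher and 13.6% lower. The share among genes with a mean log2 signal of 8 to 10, where 5 of the 9 ligase genes lay, was 7.4%. The log2 LN/HN of the ligase genes ranged from -0.23 (*FBXO40*) to 0.11 (*CBLB*), and their median was -0.017, against -0.0033 for all genes. The median size of the change, with its sign left out, was 0.079 in the ligase genes and 0.14 in all genes. By sign, 3 ligase genes were higher and 6 were lower in the LN pool, whereas 49.3% of all genes were higher and 50.7% were lower. The size exceeded the SD of replicate spots in 4 ligase genes, and it did so in 66.0% of all genes. Across the 18 probes, 8 exceeded that SD and 2, one of *FBXO32* and one of *TRIM54*, exceeded the error given by the software.

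**Figure D1:**
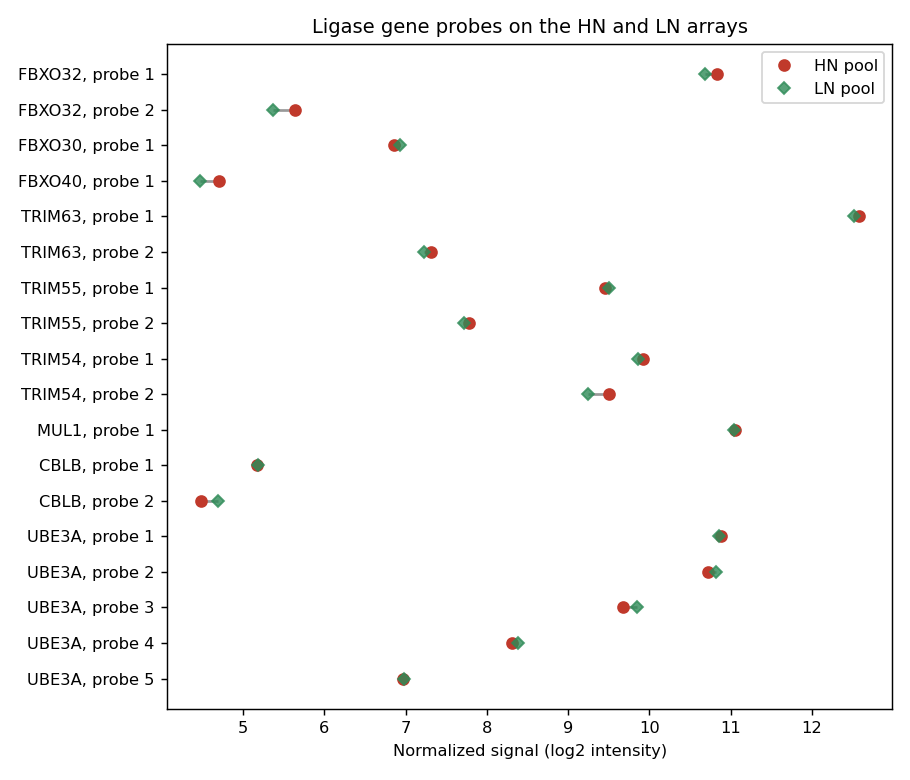
Normalized signal (x axis, log2 intensity) of the 18 ligase gene probes above background (rows), in the HN pool (circles) and the LN pool (diamonds), 1 array each. Both marks of a row nearly coincide, and the widest gap, that of the dimmer *FBXO32* probe, is 0.27. Signals of different probes cannot be set against each other.

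The lowest values among the ligase genes were those of the F-box genes *FBXO40* and *FBXO32*. *FBXO32* encodes atrogin-1, a substrate receptor that is nearly restricted to striated muscle. Its brighter probe had an intensity of 1791 in HN and 1677 in LN (log2 LN/HN -0.14), and its dimmer probe had 50.2 and 40.8 (-0.27). Both probes were thus lower in the LN pool, and the mean of the gene was -0.20, or 0.869 of the HN level. In 34.6% of all genes, and in 22.0% of genes with a mean log2 signal of 8 to 10, the change was at least as large. *FBXO40*, a muscle F-box protein that targets the insulin receptor substrate IRS1, had 1 dim probe with an intensity of 26.7 in HN and 21.7 in LN. Its log2 LN/HN of -0.23 was the lowest of the ligase genes, but below the SD between probes of genes as dim as this one (0.28), and 43.9% of genes with a mean log2 signal under 6 changed at least as much. It passed the threshold, at -0.33, with the upper quartile as the scaling, but was -0.034 after the normexp background correction, where *TRIM54* was lower (-0.12). In the authors' normalized values *TRIM54* (-0.25) was also below *FBXO40* (-0.24). *FBXO30*, the ligase subunit called MUSA1 and expressed in many tissues, had an intensity of 116.2 in HN and 121.8 in LN. This was a log2 LN/HN of 0.070, less than the SD of replicate spots.

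The 3 MuRF genes, RING ligases of the TRIM family that are bound to the sarcomere and to microtubules of muscle fibers, were lower in the LN pool or nearly equal. *TRIM63* (MuRF1), which acts on thick-filament proteins, had an intensity of 6071 in HN and 5955 in LN at its brighter probe, and 157.7 and 149.8 at the other. The probes gave a log2 LN/HN of -0.067 and -0.090, in close accord although their signals were far apart. The mean of *TRIM63* was -0.079, or 0.947 of the HN level, and 68.7% of all genes changed at least as much. *TRIM54* (MuRF3), which binds microtubules, had an intensity of 956.8 in HN and 944.5 in LN at one probe, a log2 LN/HN of -0.065. At the other probe it had 716.4 and 615.8, a log2 LN/HN of -0.26 and past the error of the software. The mean of -0.16 therefore rested mainly on 1 of the probes of *TRIM54*. *TRIM55* (MuRF2), which links titin signaling to the nucleus, had an intensity of 693.2 in HN and 734.6 in LN at its brighter probe, and 216.8 and 212.7 at the other. These probes moved in opposite directions (0.050 and -0.057), and their mean was -0.0037.

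The RING ligases outside the TRIM family were *MUL1* and *CBLB*. *MUL1*, a ligase of the outer mitochondrial membrane that acts on mitofusin, had an intensity of 2097 in HN and 2131 in LN at its detected probe. After normalization this was a log2 LN/HN of -0.017, and the sign was reversed without normalization. The second probe of *MUL1* had an intensity of 1.55 in HN and 3.37 in LN, was not well above background on either array and gave no value. With looser filters this probe entered the mean of *MUL1*, which was then 0.61 and past the threshold. *CBLB*, a ligase that restrains signaling of receptors and of IRS1, had an intensity of 36.6 in HN and 35.5 in LN at one probe (0.0074), and 22.9 and 25.2 at the other (0.21). Both probes are dim, and the mean of 0.11, the highest among the ligase genes, was within the SD between probes of such genes. With the upper quartile as the scaling *CBLB* was 0.012, below *UBE3A* (0.066), and after the normexp background correction it was -0.015.

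*UBE3A* encodes E6-AP, the founding member of the HECT ligases, and had 5 probes. In order of falling signal, the intensity was 1854 in HN and 1880 in LN, then 1657 and 1831, 803.8 and 933.9, 314.4 and 336.8, and 124.4 and 126.5. All 5 intensities were higher in the LN pool. After normalization the log2 LN/HN ranged from -0.019 at the brightest probe to 0.17, and the mean was 0.069, or 4.92% higher. The spread between these probes (SD 0.076) was as large as the mean. *NEDD4*, a HECT ligase of membrane proteins, could not be described.

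**Figure D2:**
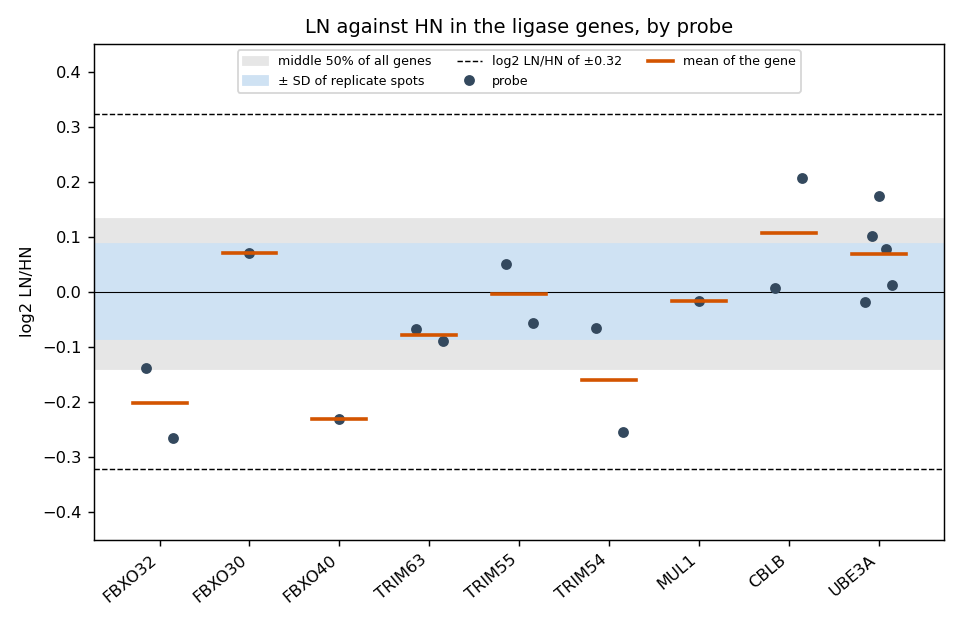
Log2 LN/HN (y axis) of the 9 ligase genes with a probe (x axis). Points are probes, orange lines the means of a gene, the blue band the SD of replicate spots (0.086), the gray band the middle 50% of all genes (-0.14 to 0.13), and dashed lines a log2 LN/HN of 0.32 in either direction. All 18 probes lie between the dashed lines, and the means of *FBXO32*, *FBXO40* and *TRIM54* lie below the gray band.

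The ligase genes were also divided by where they are known to be expressed, a division made after the values had been seen. The 5 genes expressed mainly in striated muscle (*FBXO32*, *FBXO40*, *TRIM63*, *TRIM54* and *TRIM55*) all had a negative log2 LN/HN, from -0.23 to -0.0037 with a median of -0.16. *TRIM55* was positive without normalization, after the normexp background correction and with its brighter probe, whereas the other 4 genes were negative under all 11 alternatives run. Of the 4 genes expressed in many tissues, 3 had a positive value, and their median was 0.070. After the normexp background correction 3 of these 4 were negative, *FBXO30* at -0.034, *MUL1* at -0.036 and *CBLB* at -0.015. Markers of muscle fibers were measured on the same arrays. Of 15 with a value, 11 were lower and 3 were higher in the LN pool, with a median log2 LN/HN of -0.12 (-0.066 with the brightest probe of each gene), and the sum of their normalized signals on the linear scale was 1490806.6 in HN and 1421292.5 in LN (log2 LN/HN of the sums -0.069). Both sums include *TNNC2*, the brightest fiber marker, whose values quantile normalization sets equal on the arrays. Whether the slightly lower values of the muscle ligases and those of the fiber markers have a common source was not tested. In pooled tissue RNA, fewer muscle fibers and less RNA per fiber cannot be told apart.

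Ligase genes of muscle outside the 10 were compared in the same way. In this list of other muscle ubiquitin ligases, 24 of 32 genes had a value. The median log2 LN/HN was -0.095, or -0.054 after the normexp correction, and 17 genes were lower and 7 were higher in the LN pool. Among the genes without a probe that was dim on 1 array, none passed the threshold, against 18.0% of all genes. Some members were picked after their values had been seen because they are muscle proteins. *KLHL40* (-0.31), *ASB15* (-0.24), *ASB2* (-0.20) and *KLHL41* (-0.11), cullin adaptors of muscle, were lower, whereas *FBXL22* (0.17), an F-box protein of the sarcomere, and *ASB11* (0.066) were higher. *UBR4* had a log2 LN/HN of -0.28 and *TRIM32*, a ligase of desmin filaments, of -0.076.

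The list of cullin scaffolds and neddylation genes had mostly small positive values, but *CUL1*, the scaffold on which F-box proteins work, was lower. In the list of cullins and of neddylation, the attachment of NEDD8 that switches cullins on, 14 of 15 genes with a value were higher in the LN pool, against 49.3% of all genes. Their median log2 LN/HN was 0.079, below the SD of replicate spots, and none was past the threshold, against 18.0% of all genes. Many of these genes had a mean log2 signal of 10 or more, where the share was 6.22%. *SKP1* (0.080), the adaptor between F-box protein and cullin, and *CUL1* (-0.039), the scaffold of atrogin-1, were chosen for this role after their values had been seen. *CAND1*, which exchanges F-box proteins on the scaffold, had the highest value (0.23). The median of this list was positive under all 11 alternatives, from 0.060 to 0.097.

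Ubiquitin genes and the enzymes that activate and carry ubiquitin had a value for 27 of 28 genes. The median log2 LN/HN was -0.032, or -0.0046 with the brightest probe of each gene, with 11 genes higher and 16 lower. *UBE2A*, a ubiquitin-conjugating enzyme, was the one gene past the threshold (0.42 from 1 probe, intensity 78.4 in HN and 104.2 in LN), and it was 0.25 after the normexp background correction. *UBB*, a polyubiquitin gene, had a value of -0.26, the mean of 4 probes from -0.40 to -0.10, and was chosen after its value had been seen. Of the deubiquitinases, which remove ubiquitin, 15 had a value, 11 of them higher, with a median of 0.081. *BAP1*, a nuclear deubiquitinase, was past the threshold lower (-0.44), from probes that gave -0.14 at a bright probe and -0.73 at a dim one, and its mean was -0.062 when all dim probes were kept. The 29 proteasome subunits had a median of -0.013 and a range from -0.20 to 0.16, none of them past the threshold. In these 3 lists 3.7%, 6.67% and 0% of genes were past the threshold, against 18.0% of all genes and 6.22% of those with a mean log2 signal of 10 or more. The sign of the median of the proteasome subunits changed without normalization (0.022) and with the brightest probe of each gene.

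**Figure D3:**
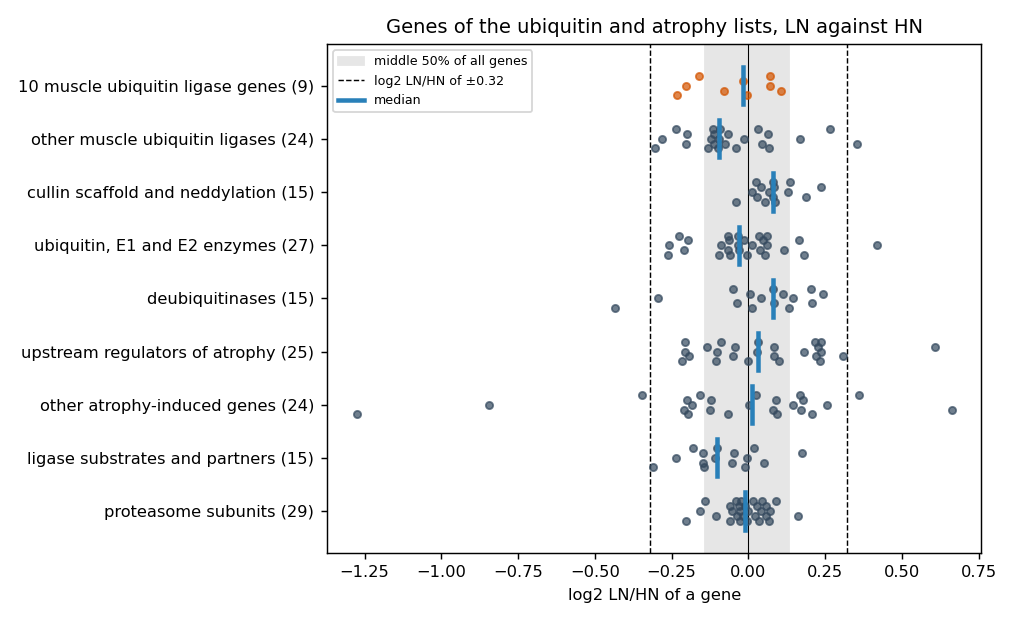
Log2 LN/HN (x axis) of each gene (points) in the ligase genes and in 8 lists of the ubiquitin and atrophy pathways (rows, with the number of genes with a value). Blue bars are medians, the gray band is the middle 50% of all genes and dashed lines are a log2 LN/HN of 0.32 in either direction. The proteasome subunits and the cullin list are narrow, and *PDK4* and *ANKRD1* stand far to the left in the list of other atrophy-induced genes.

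Upstream of the ligases, the list of regulators of atrophy had a value for 25 of 29 genes. The median log2 LN/HN was 0.031, from 0.0069 to 0.12 over the alternatives, with 14 genes higher and 11 lower. Only *KLF15*, a transcription factor that is induced by glucocorticoids and activates *FBXO32* and *TRIM63* in adult muscle, was past the threshold in this list, against 18.0% of all genes. Its intensity was 640.9 in HN and 1010 in LN, a log2 LN/HN of 0.61 or 1.52-fold, at 1 detected probe. It stayed past the threshold in 10 of 11 alternatives, and was 0.31 when all dim probes were kept, which left no gene of the list past it. Without normalization 2 genes of the list were past the threshold. Other regulators were chosen for their known place in the pathway, after their values had been seen. Of the FOXO factors, *FOXO3* had a log2 LN/HN of 0.098 and *FOXO4* of -0.21, and no probe matched *FOXO1*. *NR3C1*, the glucocorticoid receptor, had a value of -0.052 over 4 probes. *MSTN*, the growth inhibitor myostatin, had a value of 0.24, and *ACVR2B*, its receptor, of 0.23. *TNFRSF12A*, the receptor of the cytokine TWEAK, had a value of 0.31, just short of the threshold. *RELA* (-0.22) and *NFKB1* (-0.19), subunits of NF-kB, were lower in the LN pool.

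Other genes that rise with *FBXO32* and *TRIM63* in adult atrophy did not move together between the pools. Of 24 with a value, 2 were past the threshold higher and 3 past the threshold lower, which is 20.8% against 18.0% of all genes, and the median log2 LN/HN was 0.012, from 0.0003 to 0.073 over the alternatives. The higher genes were *CDKN1A*, a cell cycle inhibitor, and *MT2A*, a metal-binding metallothionein. At one *CDKN1A* probe the intensity was 1838 in HN and 3829 in LN (1.02), and at the other 38.3 and 46.1 (0.30), so that both probes were higher but by unequal amounts. *MT2A* had a mean of 0.36 from probes of 0.41 and 0.31. The lower genes were *PDK4*, a kinase that blocks glucose oxidation (-1.28), *ANKRD1*, a stress protein of the sarcomere, and *BNIP3*, a mitophagy receptor (-0.35). The 3 probes of *ANKRD1* had intensities of 49590, 4302 and 1169 in HN and of 28481, 2429 and 649.9 in LN. They gave values from -0.89 to -0.78, all lower in the LN pool. *CDKN1A*, *ANKRD1* and *PDK4* stayed past the threshold in all 11 alternatives.

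Substrates and partners of the ligases were the last list. None of its 15 genes with a value was past the threshold, against 18.0% of all genes. Among genes with a mean log2 signal of 10 or more, where many of this list lay, the share was 6.22%. In 6 of 11 alternatives, 1 gene of the list was lower past the threshold. By sign, 12 were lower and 3 higher in the LN pool. Their median was -0.10 on the log2 scale, but -0.050 after the normexp correction and -0.014 with the brightest probe of each gene. Proteins of the sarcomere and of energy buffering make up part of this list, among them *CKM* (-0.24), *ACTN2* (-0.18), *DES* (-0.15), *MYBPC1* (-0.10), *MYL1* (-0.0054), *FLNC* (0.051) and *TCAP* (0.18), while *MYOD1*, a myogenic factor and substrate of atrogin-1, had a value of -0.010. These genes were chosen after their values had been seen. No probe matched *EIF3F* or *IRS1*, the substrates of *FBXO32* and of *FBXO40* and *CBLB*.

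The label of the tissue was checked against marker genes. All 15 fiber markers with a probe were well above background on both arrays, and of 5 heart muscle markers with a probe, 3 were detected. These were *MYL4* (-0.97), a light chain also made in fetal skeletal muscle, *TNNI3* (-0.26) and *TNNT2* (-0.14), the latter pair named after their values had been seen, whereas *NPPA* and *NPPB* were not detected. Past the threshold, *MYH1* (-0.50), a fast myosin, *MB* (-0.37), the oxygen carrier myoglobin, and *CASQ1* (-0.34), a calcium store protein, were lower in the LN pool and *MYH8* (0.35), the perinatal myosin, was higher. These 4 genes were 26.7% of the fiber markers with a value, against 18.0% of all genes. *TNNC2* lay at the top of both arrays, where quantile normalization sets the values equal. *MYMK*, the fusion protein of myoblasts, was lower (-0.50).

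Markers of some other cells had larger values than any ligase gene. All 7 detected markers of fibroblasts and fibro-adipogenic progenitors were higher in the LN pool, with a median log2 LN/HN of 0.33 and 4 past the threshold, against 8.85% of all genes. The count past the threshold was 2 in the authors' normalized values. The sum of their normalized signals was 39348 in HN and 49221 in LN, and *TCF21* was not detected. *OSR1* (0.43), *LUM* (0.35) and *COL1A1* (0.34) were the highest of the 7, and *COL3A1*, the brightest, was 0.33. Of 5 neutrophil markers, 4 were higher past the threshold, against 8.85% of all genes, led by *S100A8* (1.39), *S100A9* (2.37-fold) and *CATHL2* (0.98), while *S100A12*, the brightest, was 0.61. *MMP9*, named after its value had been seen, was lower (-0.24). The normalized signals of these 5 markers summed to 794.5 in HN and 1502 in LN. Of 5 macrophage markers 4 were lower, with a median of -0.29 (-0.13 and 1 gene past the threshold after the normexp correction), and *C1QB* (-0.45) and *CD68* (-0.35) were past the threshold, against 9.11% of all genes. Of 5 T cell markers 4 were lower, with a median of -0.13, or -0.40 with the brightest probe of each gene. The dim *CD2* (-0.44) and *CD8A* (-0.42) were past the threshold, against the same 9.11%, whereas *CD4* was -0.13 at 1 bright probe, with its other 3 probes at or near background. The median was -0.17 for 6 endothelial, -0.11 for 6 erythroid, 0.21 for 4 adipocyte, -0.13 for 6 satellite cell and 0.067 for 4 nerve markers. With all dim probes kept, the adipocyte median was 0.049 and the nerve median 0.0029, and after the normexp correction the erythroid median was -0.032. The brightest markers of these cells were *ESAM* (-0.16), *HBA* (0.0021), *LPL* (0.20), *CDH15* (-0.18) and *S100B* (0.0029), and *FABP4* (0.39) was the adipocyte marker past the threshold. Of the adipocyte markers, 3 were higher and 1 was lower, *PLIN1* (-0.14), named after its value had been seen, and *LEP* was not detected. The part of these cells in the values of *FBXO30*, *CBLB*, *MUL1* and *UBE3A*, which many tissues express, was not tested.

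**Figure D4:**
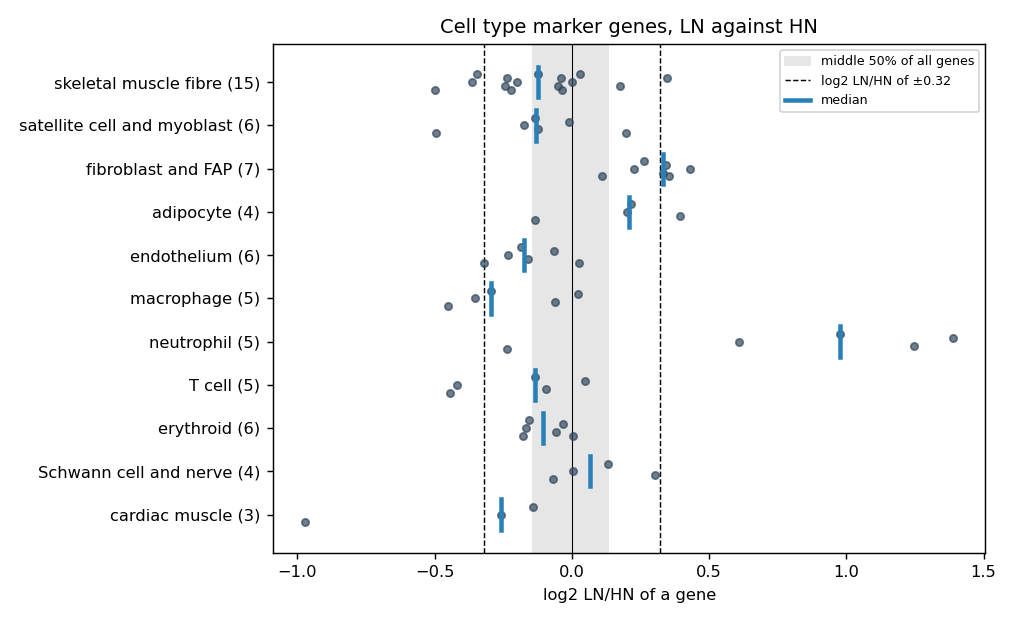
Log2 LN/HN (x axis) of marker genes (points) of 11 cell types (rows, with the number of genes with a value). Blue bars are medians, the gray band is the middle 50% of all genes and dashed lines are a log2 LN/HN of 0.32 in either direction. The fibroblast and neutrophil medians lie to the right of the upper dashed line, and the fiber median lies inside the gray band.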

How the data were processed

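For each group, the LT muscle RNA of 4 fetuses was combined, labeled with Cy3 and hybridized to 1 Agilent Bovine (v2) array. The authors extracted the spots with Feature Extraction 11.0.1.1 and deposited intensities that were corrected for background but not scaled to each other. The authors also deposited log2 values of 30027 probes from GeneSpring GX, which had applied quantile normalization, and the log2 scale was judged from the values. The lists, members and alternatives were chosen with earlier results of these data known.

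Log2 intensities of the 43803 non-control spots were normalized by the quantile method (limma 3.58.1, R 4.3.3), because the paper states this method. Replicate spots of a probe were averaged after 13 spots with an outlier flag had been left out. Genes were given the mean of those probes that were well above background on at least 1 array. A probe dim on 1 array was given a lower limit from the lowest signal well above background there. Accessions were matched to symbols through the RefSeq gene table of ARS-UCD2.0 (26742 of 43652 probes, 12603 symbols), which was used for names only because the array design refers to another assembly. Of the 281 genes in the 19 lists, 235 had a value, and the others had no matched probe or no detected one. Some list genes are not reported here. Tables were handled with Python 3.11.15 and pandas 2.3.3, and the steps were tested on simulated data. The planted changes were larger than any value of a ligase gene and lay in genes well above background on both arrays. Recovery of smaller changes or of changes in dim probes was not tested.

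All 10 ligase genes were named. From each list, up to 3 genes with the largest rise and up to 3 with the largest fall were named among genes past a log2 LN/HN of 0.32 in size with all detected probes measured on both arrays, and the brightest marker of a cell type. Other genes were chosen after their values had been seen, as stated with them. With 1 array per group, no genes were ranked for likeness to a ligase gene. Spots well above background made up 74.5% (HN) and 70.9% (LN), no spot was saturated, and 7 spike-in RNAs had a log2 LN/HN from -0.028 to 0.050. The number of arrays limits the precision. Alternatives were other normalizations, the normexp background correction, the authors' values, other filters on dim probes, other summaries of probes, and spots with flags kept.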

Additional observations from a re-analysis of the deposited data

How the results depend on the processing

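The 9 ligase genes were recomputed under 11 alternatives. The median log2 LN/HN stayed within the SD of replicate spots of the reported value under each. The count of genes past the threshold, 0, became 1 lower gene (*FBXO40*, -0.33) with the upper quartile (75th percentile) as the scaling, and 1 higher gene (*MUL1*, 0.61) both with all dim probes kept and with the looser filter of a positive and significant signal. Under both, the second *MUL1* probe, which is not well above background on either array, enters the mean. The count of genes higher in the LN pool, 3, was 5 without normalization and 2 to 4 otherwise. Of 98 single values of the genes, 86 moved by less than the SD of replicate spots and 12 by more. *FBXO32*, *FBXO40*, *TRIM63* and *TRIM54* kept a negative sign throughout. *FBXO40* ranged from -0.33 to -0.034, *TRIM54* from -0.25 in the authors' normalized values to -0.065 with its brightest probe, and *FBXO32* from -0.23 to -0.11. After the normexp background correction, *FBXO30* (-0.034) and *CBLB* (-0.015) changed sign, as did *UBE3A* (-0.019) with its brightest probe. The authors' values hold 14 of the 19 ligase probes and none of *TRIM55*. The normexp correction used median signals, since the files hold no mean signals, a choice made after seeing the data. Naming probes by a gene name column was not run, because the files have none. Replicates could not be left out with 1 array per group. No paired analysis was possible because each group has 1 array. Among all genes, 1731 were past the threshold higher and 1781 lower. With the upper quartile as the scaling these counts were 1191 and 2693, after the normexp correction 319 and 391, with the looser filter 3125 and 3777, and with all dim probes kept 3251 and 3592. Of the list genes named as past the threshold, *BAP1*, *BNIP3*, *CASQ1*, *CD2*, *CD68*, *CD8A*, *COL1A1*, *COL3A1*, *KLF15*, *LUM*, *MB*, *MT2A*, *MYH8*, *MYMK* and *UBE2A* fell short of it under at least 1 alternative, and none changed sign. *MYH8* was 0.041 with its brightest probe.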
